A study of Mus musculus with 4 samples.

Results

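The 9 genes described here encode the translation elongation machinery of the cytosol and its direct regulators. They were chosen by name (Eef1a1, Eef1a2, Eef1b2, Eef1d, Eef1e1, Eef1g, Eef2, Eef2k and Eef2kmt), and all 9 were found, each in 1 row, among the 18169 rows of the deposited table. RNA-seq was performed on primary neural stem/progenitor cells (NSCs) of C57BL/6 mice, which were grown from the periventricular region of single newborn brains in medium with EGF and FGF2. The groups were 2 cultures of wild-type (+/+) NSCs and 2 cultures of NSCs from Chd5-/- mice, which lack the chromatin remodeler Chd5, and no agent was given to either group. The growth protocol gives postnatal day 1 for all animals, whereas the age field of the labels reads day 1 or 2 for +/+ and day 3 or 4 for Chd5-/- animals, so that by this field age and genotype cannot be told apart. By the growth protocol each culture came from 1 animal, the litters are not given, and each SD of a genotype rests on 2 values, whereas the standard errors from limma pool both genotypes and are moderated over all rows.

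Elongation factors carry the ribosome through the coding sequence. The GTPase eEF1A brings each aminoacyl-tRNA to the ribosome, the eEF1B complex (encoded by Eef1b2, Eef1d and Eef1g) exchanges its GDP for GTP, and the GTPase eEF2 then moves the ribosome on by a codon. The kinase Eef2k phosphorylates eEF2 and so slows elongation, and the methyltransferase Eef2kmt modifies a lysine of eEF2. Many mRNAs of this group, like those of ribosomal proteins, begin with a 5′ terminal oligopyrimidine tract (TOP) through which mTOR controls their translation. Eef1e1, although named as an elongation factor subunit, is a scaffold protein of the multi-tRNA synthetase complex.

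Values are the deposited TPM (transcript abundances, scaled to transcript length and to the same total in each sample). The columns added to between 1000015 and 1000031 TPM, and since TPM keeps no read numbers neither the depth nor a counting error can be given. Chd5 itself was at 0.39 and 0.37 TPM in +/+ NSCs and at 0.06 and 0.04 TPM in Chd5-/- NSCs. The share of TPM taken by the 20 most abundant rows was 32.4% to 35.6% in +/+ NSCs but 21.6% to 22.8% in Chd5-/- NSCs, and the median difference between genotypes over all rows tested was 0.34 in log2(TPM + 1). The summed TPM of 8 markers of neural stem and progenitor cells (Nes, Vim, Sox2 and others, all detected) was 9668 and 8000 in +/+ NSCs against 3804 and 6540 in Chd5-/- NSCs, and their part in the differences below was not tested. Fabp7 and Slc1a3 carried most of this sum, Nes overlapped between genotypes, and Prom1, Pax6 and Hes5 were each highest in 1 of the Chd5-/- samples. In bulk RNA, fewer cells of a type and less RNA per cell cannot be told apart.

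In Chd5-/- NSCs the RNA of Eef2 and of the eEF1B subunits Eef1d and Eef1g was higher by 2.1- to 4.15-fold, while that of Eef1a1, by far the most abundant of the genes, was at 0.964 times the +/+ mean. Eef1e1 was lower, at 0.534 times the +/+ mean. The genotypes did not overlap for 7 genes that were higher and 1 (Eef1e1) that was lower in Chd5-/- NSCs, and overlapped for 1 (Eef1a1), where 46.3% of all rows tested were higher and 13.0% lower in this way. One of the 7 was Eef1a2, which entered the test through a single Chd5-/- sample, and without it 6 of the other 8 genes were higher in this way. With limma on log2(TPM + 1), 4 of the 9 genes were higher and 1 was lower at an unadjusted p under 0.05, against 21.9% and 2.27% of all 12576 rows (24.1% in either direction). None of the 9 passed after Benjamini-Hochberg adjustment over all rows, a threshold that 0.0557% of the rows passed. The difference was 1 or more on the log2 scale for 5 of the genes (4 of the 8 other than Eef1a2) and for 18.5% of all rows. The size of the differences depended on single libraries. Without Chd5-/- replicate 1 the difference in log2(TPM + 1) was 2.47 for Eef2, 1.52 for Eef1d, -1.39 for Eef1e1 and 0.22 for Eef1a2. Without Chd5-/- replicate 2 these were, in the same order, 1.62, 1.42, -0.52 and 3.65. They were 2.45, 1.79, -1.02 and 1.91 without +/+ replicate 1, and 1.63, 1.15, -0.89 and 1.96 without +/+ replicate 2.

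**Figure D1:**
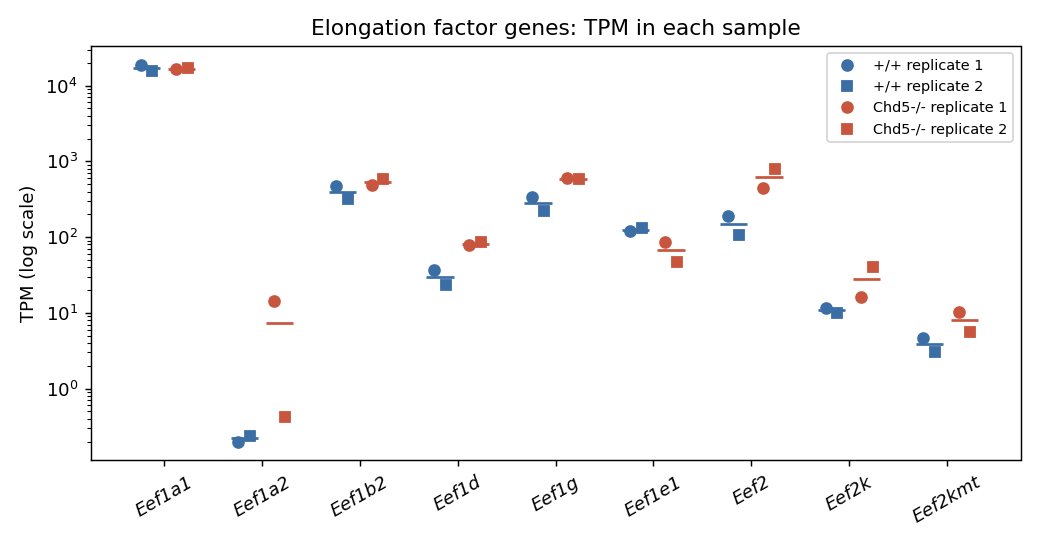
TPM of the 9 genes (log axis) in each +/+ (blue) and Chd5-/- (red) sample, with circles for replicate 1, squares for replicate 2 and bars for the mean of the 2 samples. Eef1a1 sits at 15829.11 TPM or more in every sample, and the 2 genotypes are apart for Eef1d, Eef1g, Eef2 and, in the other direction, Eef1e1.

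Eef1a1, the eEF1A isoform of most tissues, was at 18885.53 and 15829.11 TPM in +/+ NSCs and at 16500.46 and 16976.76 TPM in Chd5-/- NSCs. Both Chd5-/- values fell between the 2 +/+ values. The gene took between 1.58% and 1.89% of all TPM of a sample and ranked between 6th and 9th of all rows. Its difference in log2(TPM + 1) was -0.05 (standard error 0.41, limma adjusted p = 0.955), which became 0.38 after quantile normalization, -0.42 after median-of-ratios scaling and 0.08 without +/+ replicate 1. GENCODE M21 (GRCm38) places the gene on the minus strand of chromosome 9, from 78478449 to 78489151, and 13 pseudogenes of that annotation match at least 50% of its coding sequence at 90% identity or more. One of these, Gm6548, has a row of its own at 17.77 and 19.95 TPM in +/+ NSCs and 25.16 and 25.52 TPM in Chd5-/- NSCs, so reads of the family may have been split, though Gm6548 is small beside Eef1a1.

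Eef1a2, the isoform that replaces Eef1a1 in mature neurons and muscle, was near the floor of the table in 3 of the 4 samples. It was at 0.20 and 0.24 TPM in +/+ NSCs and at 14.27 and 0.42 TPM in Chd5-/- NSCs. Its high value was that of Chd5-/- replicate 1 alone, through which it passed the minimum mean of 1 TPM, and the difference of 1.93 in log2(TPM + 1) had a standard error of 1.11 (limma adjusted p = 0.340). Without Chd5-/- replicate 1 it was 0.22 on the same scale, and without Chd5-/- replicate 2 it was 3.65. The neuronal markers Gap43 (47.73 and 28.03 TPM in +/+ NSCs, 147.89 and 120.73 TPM in Chd5-/- NSCs) and Stmn2 (0.11 and 0.26 TPM, then 2.98 and 0.62 TPM) were highest in the library with the high Eef1a2 value. More of the listed neuronal markers (Snap25, Tubb3, Syt1, Syp and Map2) were highest in Chd5-/- replicate 2 instead. Syt1, for example, was at 2.21 and 7.62 TPM in Chd5-/- replicates 1 and 2. The 8 neuronal markers listed summed to 557 and 548 TPM in +/+ NSCs and to 522 and 925 TPM in Chd5-/- NSCs, of which Map2, highest in Chd5-/- replicate 2, made up the most, and Rbfox3 was listed at 0 in 3 samples and at 0.07 TPM in +/+ replicate 1. Muscle markers (3 of 5 found) summed to at most 0.46 TPM in any sample. The 6 mesenchymal markers summed to 12.2 TPM in Chd5-/- replicate 1 and to 0.17 TPM or less in the other samples, led by Col3a1 at 7.41 TPM, and the part of neuronal and mesenchymal markers in the Eef1a2 value was not tested. The coding sequences of Eef1a2 and Eef1a1 were 80.5% identical over 1384 aligned positions.

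The exchange factor subunits did not move by the same amount. Eef1b2, the catalytic alpha subunit of eEF1B, was at 475.07 and 321.05 TPM in +/+ NSCs and at 492.74 and 589.78 TPM in Chd5-/- NSCs. The groups did not overlap, but the lowest Chd5-/- value was close to the highest +/+ value, and the difference of 0.46 in log2(TPM + 1) (standard error 0.29, limma adjusted p = 0.371) was smaller than the 0.56 between the 2 +/+ samples. Eef1g, the structural gamma subunit, was at 340.57 and 222.13 TPM in +/+ NSCs and at 601.73 and 579.59 TPM in Chd5-/- NSCs. Here the Chd5-/- samples were nearly equal and well above both +/+ samples, with a difference of 1.10 (standard error 0.29, unadjusted p = 0.0111, limma adjusted p = 0.130). GENCODE M21 holds 4 pseudogenes close to Eef1g, with no row of their names in the table.

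Eef1d, the delta subunit with a second exchange domain, averaged 29.8 ± 9.55 TPM in +/+ and 82.3 ± 4.06 TPM in Chd5-/- NSCs (SD, n = 2 each), a ratio of 2.76. The single values were 36.57 and 23.06 TPM in +/+ NSCs and 79.47 and 85.21 TPM in Chd5-/- NSCs, so that the lower Chd5-/- value was above the higher +/+ value by more than the spread within either genotype. The difference of 1.47 in log2(TPM + 1) had the smallest unadjusted p-value of the 9 genes (standard error 0.29, unadjusted p = 0.00341, limma adjusted p = 0.120). In rank among all rows of a sample, which does not depend on scaling by a common factor, Eef1d stood at 3814 and 4862 in +/+ NSCs and at 2057 and 1908 in Chd5-/- NSCs. Eef1d has transcripts of different coding length in the annotation, and the deposited row does not tell them apart.

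On log2(TPM + 1) as deposited, Eef2 had the largest difference of the 9 genes, though that of Eef1a2 was larger as a ratio of means and, on the log2 scale, after median-of-ratios scaling (1.78 against 1.67). Eef2 was at 190.46 and 107.89 TPM in +/+ NSCs and at 441.40 and 796.59 TPM in Chd5-/- NSCs, with means of 149 ± 58.4 and 619 ± 251 TPM (SD, n = 2 each). Both genotypes had a wide spread, with a gap of 0.81 between the 2 +/+ samples and of 0.85 between the 2 Chd5-/- samples in log2(TPM + 1), yet the groups were apart. The difference was 2.04 (standard error 0.42, unadjusted p = 0.00410, limma adjusted p = 0.120), above that of 98.3% of all rows tested. By rank, Eef2 stood at 757 and 1364 in +/+ NSCs and at 304 and 146 in Chd5-/- NSCs. GENCODE M21 places Eef2 on the plus strand of chromosome 10, between 81176631 and 81182498, and its 1 close pseudogene has no row in the table.

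The regulators of eEF2 were expressed at a far lower level. Eef2k, the calmodulin-dependent kinase that inhibits eEF2, was at 11.48 and 10.10 TPM in +/+ NSCs and at 16.16 and 40.51 TPM in Chd5-/- NSCs. The +/+ samples were close to each other, and most of the difference of 1.18 in log2(TPM + 1) came from Chd5-/- replicate 2 (standard error 0.46, unadjusted p = 0.0490, limma adjusted p = 0.206). Without that sample it was 0.54. Eef2kmt, the methyltransferase, was at 4.64 and 3.07 TPM in +/+ NSCs and at 10.30 and 5.61 TPM in Chd5-/- NSCs, a difference of 0.85 (standard error 0.40, limma adjusted p = 0.259) beside a gap of 0.77 between the 2 Chd5-/- samples. Here Chd5-/- replicate 1 was the higher of the pair, whereas for Eef2 and Eef2k it was replicate 2.

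Eef1e1 was the exception in direction. It was at 120.56 and 131.63 TPM in +/+ NSCs and at 87.42 and 47.36 TPM in Chd5-/- NSCs, and both Chd5-/- samples lay below the closely matched +/+ pair. The difference was -0.96 in log2(TPM + 1) (standard error 0.34, unadjusted p = 0.0353, limma adjusted p = 0.181), lower than that of all but 1.8% of the rows tested. It was -0.52 without Chd5-/- replicate 2 and -1.39 without Chd5-/- replicate 1. Under the other scalings it ranged from -1.33 after median-of-ratios scaling to -0.96 with GC and length trends removed.

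The annotated starts of both eEF1A genes, Eef1b2, Eef1e1 and Eef2 are shown because the TOP tract is counted among the shared features of this group. RefSeq promoter entries (GRCm38.p6) were found for 7 of the 9 genes, and not for Eef1d and Eef1g. Each line gives 30 bases before and 30 bases from the annotated start on, 5′ to 3′ on the strand of the gene, with the longest run of C or T in capitals.
Eef1a1 (chr9:78481695-78481754, minus strand): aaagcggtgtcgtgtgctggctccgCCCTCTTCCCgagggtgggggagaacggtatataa
Eef1a2 (chr2:181156986-181157045, minus strand): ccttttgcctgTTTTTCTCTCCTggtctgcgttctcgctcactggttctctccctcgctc
Eef1b2 (chr1:63176801-63176860, plus strand): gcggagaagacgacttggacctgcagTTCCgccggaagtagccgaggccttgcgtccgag
Eef1e1 (chr13:38658999-38659058, minus strand): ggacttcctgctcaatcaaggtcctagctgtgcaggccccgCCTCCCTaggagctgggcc
Eef2 (chr10:81176601-81176660, plus strand): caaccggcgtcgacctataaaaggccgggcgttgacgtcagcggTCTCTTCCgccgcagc
The longest run was 10 bases for Eef1a1, 12 for Eef1a2, 4 for Eef1b2, 7 for Eef1e1 and 8 for Eef2. Runs at least as long were found on the given strand in 10.9%, 5.56%, 88.4%, 33.8% and 22.9% of the 32851 such windows of all genes. The run of Eef2 begins at base 15 counted from the annotated start, that of Eef1e1 at base 12, and that of Eef1a1 spans the annotated start. The marked runs of Eef1a2 and Eef1b2 end before the annotated start. After the start, the Eef1a2 window holds a slightly shorter run (ttctctccctc), and the Eef1b2 window holds a run as long as the marked one (cctt). Eef1a1 and Eef2, with differences of -0.05 and 2.04, both held a run longer than the median of 5 bases over all windows. The run of Eef1a1 lies before a stretch like the TATA box of promoters (tatataa), whereas that of Eef2 lies after such a stretch (tataaaa). An annotated start need not be the start used in these cells, and whether any of these runs begins the RNA was not tested.

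Because TPM is scaled to a common total, ratios between genes of the same sample were taken as a measure that does not depend on a common scaling factor between samples, although it still depends on trends with GC content and length. With 2 samples against 2 the smallest p-value of an exact permutation test (two-sided) is 0.333, and each of the 9 ratios had this value, with no overlap between genotypes. Eef2 was at 1.01% and 0.682% of Eef1a1 in +/+ NSCs and at 2.68% and 4.69% in Chd5-/- NSCs, a difference of 2.10 in the log2 ratio (pooled SD 0.49). Eef1g was at 1.80% and 1.40% of Eef1a1 in +/+ NSCs and at 3.65% and 3.41% in Chd5-/- NSCs. The difference of the log2 ratio to Eef1a1 was 0.51 for Eef1b2, 1.15 for Eef1g and 1.55 for Eef1d. Of all other rows tested, 49.6% were higher relative to Eef1a1 in both Chd5-/- samples with no overlap, and 7 of the 8 other members were. Eef1a2, which entered the test through a single Chd5-/- sample, was among the 7. With the trends of GC content and length removed, the difference was 1.43 for Eef2 (pooled SD 0.36), 0.91 for Eef1d, 0.81 for Eef1g and 0.60 for Eef1b2, with no overlap for these 4. The share of all rows without overlap on this scale was not computed. Eef1a1 itself was lower on this scale, by -0.27 and in both Chd5-/- samples, which raises every ratio to it.

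Within eEF1B, the ratios of Eef1d and Eef1g to Eef1b2 were higher in Chd5-/- NSCs as deposited, and less so with the trends removed. Eef1d was at 7.70% and 7.18% of Eef1b2 in +/+ NSCs and at 16.1% and 14.4% in Chd5-/- NSCs. This ratio had the smallest spread between replicates of the 9 (pooled SD 0.09, difference 1.04 in log2). Eef1g was at 71.7% and 69.2% of Eef1b2 in +/+ NSCs and at 122% and 98.3% in Chd5-/- NSCs, a difference of 0.64 (pooled SD 0.16). With the trends of GC content and length removed these differences were 0.31 for Eef1d and 0.21 for Eef1g (pooled SD 0.16 for each), and the groups lay next to each other for Eef1g, with -0.24 in both the highest +/+ and the lowest Chd5-/- sample at this rounding. The kinase was lower relative to its substrate as deposited. Eef2k was at 6.03% and 9.36% of Eef2 in +/+ NSCs and at 3.66% and 5.09% in Chd5-/- NSCs, a log2 difference of -0.80 (pooled SD 0.40), so that Eef2k was higher in TPM but lower per Eef2 transcript. With the trends removed this difference was -0.39 (pooled SD 0.31), and the genotypes overlapped. Eef2kmt was at 2.44% and 2.85% of Eef2 in +/+ NSCs and at 2.33% and 0.704% in Chd5-/- NSCs, where only replicate 2 was far from the +/+ pair. In sum over the 8 genes other than Eef1a1, the TPM was 1179.6 and 819.2 in +/+ NSCs and 1743.5 and 2145.1 in Chd5-/- NSCs.

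**Figure D2:**
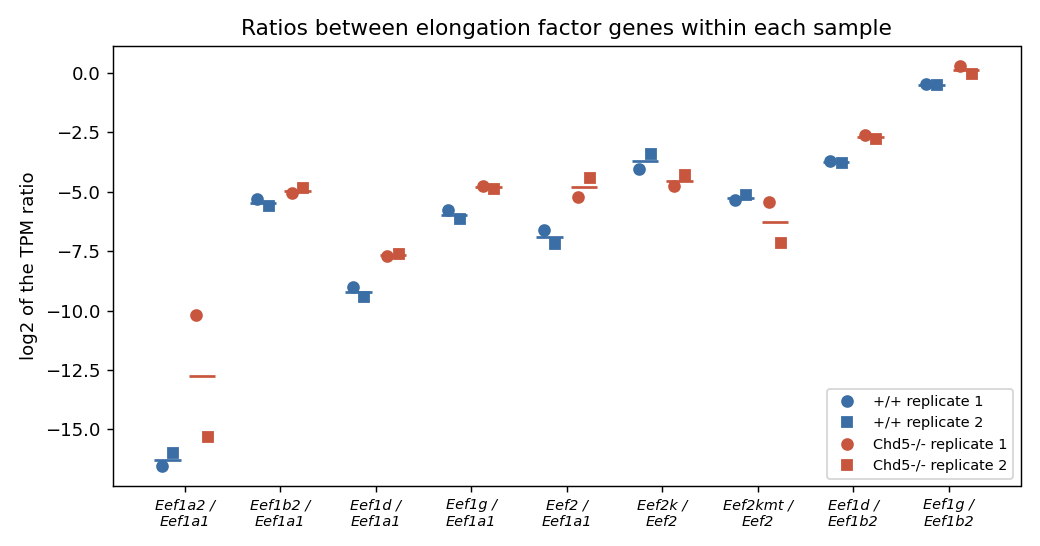
log2 of the TPM ratio of 9 gene pairs within each sample, with circles for replicate 1, squares for replicate 2 and bars for genotype means (blue, +/+ and red, Chd5-/-). Eef1d relative to Eef1b2 has the tightest replicates, at -3.70 and -3.80 in +/+ NSCs and -2.63 and -2.79 in Chd5-/- NSCs, while Eef1a2 relative to Eef1a1 is far apart between the 2 Chd5-/- samples.

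Most of the differences were smaller with trends across all rows taken into account, but that of Eef1e1 was -0.96 either way and that of Eef1a1 was -0.27 with them removed. The difference over all rows between genotypes increased with the GC content of the transcript, with medians of -0.22 and 1.05 in the lowest and the highest of 10 bins of 1170 rows each. Eef2 (57.0% GC) and Eef1d (56.1%) fell in the same GC bin, whose median was 0.95, and they were above 97.3% and 85.9% of its rows. Eef1e1 (44.1%) was below all but 2.6% of the rows of like GC content, whose median was 0.01. Eef1g (52.0%) was above 84.7% of its bin and Eef2k (50.6%) above 91.9%, whereas Eef2kmt (54.4%) at 61.8% and Eef1a1 (47.4%) at 32.4% were in the middle of theirs. Eef1a2 (60.6%), with its value from a single library, was above 94.8% of its bin.

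**Figure D3:**
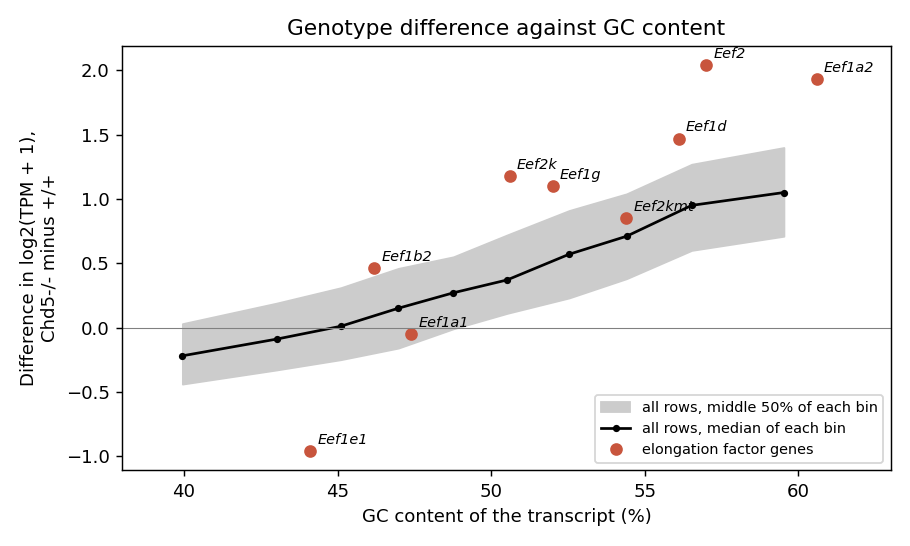
Difference in log2(TPM + 1) between genotypes against transcript GC content in percent, with the median (line) and the middle 50% (grey) of all rows tested in 10 bins of equal size, and the 9 genes as red points. Eef1a2, Eef2, Eef1d, Eef1g and Eef2k lie above the grey band, Eef1b2 lies just above its upper edge, and Eef1e1 lies below the band.

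With trends of GC content and length removed from each sample by loess, Eef2 was at a difference of 1.16 (standard error 0.37, limma adjusted p = 0.443), Eef1d at 0.64 (standard error 0.21, limma adjusted p = 0.448) and Eef1e1 at -0.96 (standard error 0.32, limma adjusted p = 0.448). These 3 genes had an unadjusted p under 0.05, 2 of them higher and 1 lower, against 4.65% and 6.05% of the 11700 rows (10.7% in either direction). Eef1g was then at 0.54 and Eef2kmt at 0.12, and the groups overlapped for Eef1a2, Eef1b2 and Eef2kmt. How many of all rows overlapped with the trends removed was not computed, so the overlap of these genes has no background to be read against. Eef1a1, which overlapped as deposited, was at 14.28 and 14.10 in +/+ NSCs and at 13.83 and 14.01 in Chd5-/- NSCs on this scale, with both Chd5-/- samples below. Median-of-ratios scaling left 4 of the 9 genes (Eef1d, Eef1e1, Eef1g and Eef2) at an unadjusted p under 0.05, against 22.4% of all rows. The median over the 9 genes went from 1.10 as deposited to 0.73 on median-of-ratios values and 0.54 after loess, where the median of all rows went from 0.34 to 0.005 and -0.02.

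**Figure D4:**
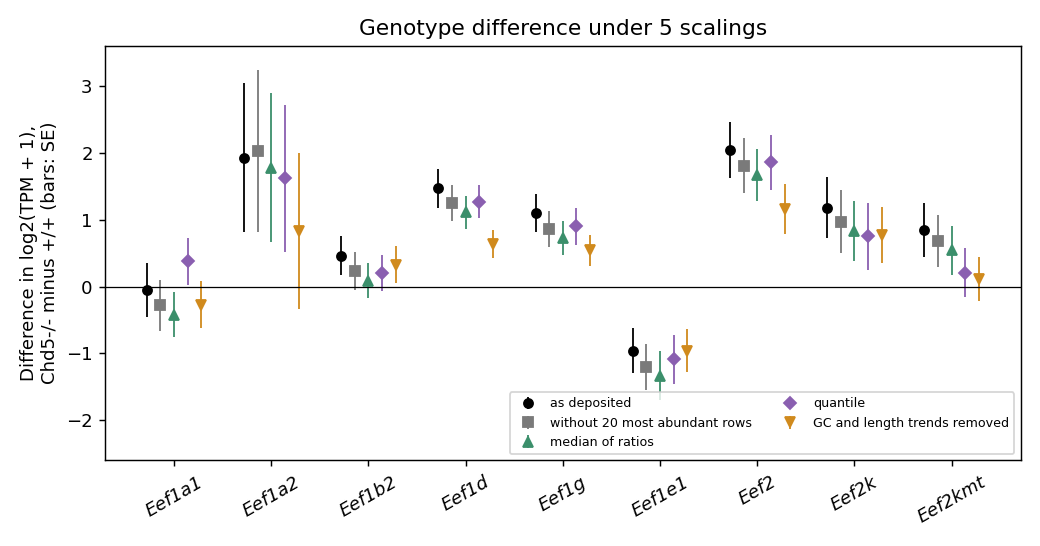
Difference in log2(TPM + 1), Chd5-/- minus +/+, of each gene under 5 scalings between samples, with bars for the standard error from limma. Eef1a2, Eef1b2, Eef1d, Eef1g, Eef2, Eef2k and Eef2kmt stay above 0 and Eef1e1 stays below 0 under each. Eef1a1 is at 0.38 after quantile normalization and below 0 otherwise.

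Genes that act with the elongation factors were described by lists. The cytosolic ribosomal protein genes (80 rows tested), whose mRNAs are TOP mRNAs as well, had a median difference of 1.04, and 64 were higher and 0 lower at an unadjusted p under 0.05. With the trends of GC content and length removed their median was 0.50, with 23 higher and 0 lower. The study came to ribosomal protein genes from these same samples, so their direction is not independent evidence. The 9 genes of the elongation factor group had medians near those of this list, 1.1 as deposited and 0.54 with the trends removed. Their differences ranged from -0.96 to 2.04. The lowest was that of Eef1e1, the scaffold of the synthetase complex, and the next lowest was that of Eef1a1, at -0.05. The 12 cytosolic partners, which act in the eIF5A route, selenocysteine insertion, termination and ribosome rescue, had a median of 0.28, with 3 higher and 1 lower. In this list the largest difference upward was that of Dohh, a hydroxylase that completes the hypusine of eIF5A, at 0.95 and 1.11 TPM in +/+ NSCs and 3.97 and 4.19 TPM in Chd5-/- NSCs. The largest downward was that of Abce1, which recycles ribosomes, at 208.25 and 222.32 TPM against 169.46 and 85.64 TPM (difference -0.83, limma unadjusted p = 0.0696).

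The enzymes that modify the factors showed no common direction. Of 6 genes of diphthamide synthesis, which builds the modified histidine of eEF2, 1 was higher (Dph7, difference 0.74, limma unadjusted p = 0.0462) and 0 lower at an unadjusted p under 0.05, and the lowest was Dph6 (-0.42). Of 5 methyltransferase rows tested for eEF1A and eEF2, Eef2kmt among them, Mettl13, which methylates eEF1A, was higher by 1.19 (limma unadjusted p = 0.0129) and Mettl10, also an eEF1A lysine methyltransferase, was lower, with a difference of -0.75 (limma unadjusted p = 0.0343). The row Ece2 was taken for Eef1akmt4 and may not stand for a methyltransferase. Its difference of 0.83 is the median of this list. Among 12 genes of inputs to the eEF2 kinase the median was -0.03, with 3 higher and 0 lower. The highest of these was the calmodulin gene Calm3 (1.2, limma unadjusted p = 0.00610) and the lowest was Prkaa2, a catalytic subunit of AMPK (-0.49, limma unadjusted p = 0.391).

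Genes of the complex that holds Eef1e1 differed in both directions. The 12 genes of the multi-tRNA synthetase complex together with Vars, the valyl-tRNA synthetase that binds eEF1B, had a median of 0.31, with 3 higher and 1 lower at an unadjusted p under 0.05. The 1 that was lower was Eef1e1. Dars, the aspartyl-tRNA synthetase, was also below in both Chd5-/- samples, at 228.81 and 284.52 TPM in +/+ NSCs and 200.48 and 162.00 TPM in Chd5-/- NSCs (-0.50, limma unadjusted p = 0.0952), and the synthetase genes Iars (-0.34), Rars (-0.27) and Eprs (-0.19) had differences below 0 with overlapping groups. The remaining synthetase genes of the complex went the other way. Qars (1.06, limma unadjusted p = 0.00706), Kars (0.53) and Lars (0.25) were higher with no overlap, and Mars (0.38) was higher with overlapping groups. The other scaffold genes Aimp1 (0.76) and Aimp2 (0.71) were higher in both Chd5-/- samples than in either +/+ sample, and Vars had the largest difference of the list (1.08, limma unadjusted p = 0.0333). In mitochondria, the 5 elongation factor genes had a median of -0.05. Tufm, the mitochondrial counterpart of eEF1A, was at 35.37 and 23.79 TPM in +/+ NSCs and at 79.07 and 62.08 TPM in Chd5-/- NSCs (1.24, limma unadjusted p = 0.00719), while Gfm1, the mitochondrial translocase, had a difference of -0.33. No gene of these 7 lists passed the threshold after adjustment over all rows. The numbers at an unadjusted p under 0.05 are to be read against the 21.9% of all rows that were higher and the 2.27% that were lower. With the trends of GC content and length removed, the medians were -0.24 for the partners, -0.11 for diphthamide synthesis, 0.15 for the 3 methyltransferase rows with a value, -0.08 for the kinase inputs, -0.16 for the synthetase complex and -0.30 for the mitochondrial factors. Over these 6 lists 1 gene was then higher and 3, Eef1e1 among them, were lower at an unadjusted p under 0.05. Of all 11700 rows on this scale, 4.65% were higher and 6.05% lower in this way.

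**Figure D5:**
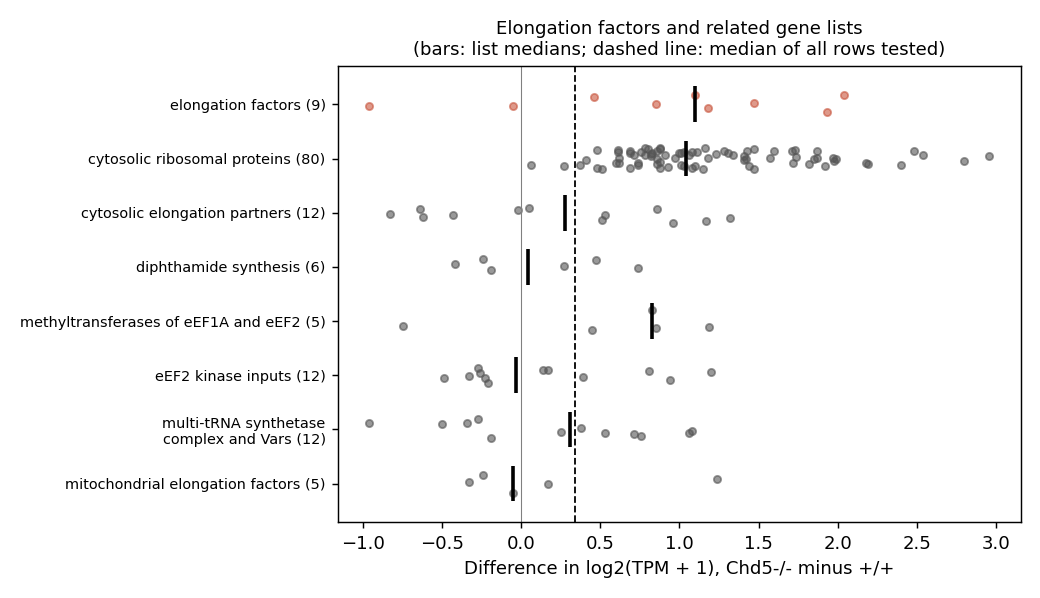
Difference in log2(TPM + 1), Chd5-/- minus +/+, of each gene tested (points, with the number of rows in brackets) in the elongation factor group and 7 related lists. Black bars are list medians and the dashed line is the median of all rows tested, 0.34, and only the elongation factors, the ribosomal proteins and the methyltransferases have a median to its right.

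The rows whose profile over the 4 samples was most like that of Eef2 were Fam64a, Ypel3 and 3010026O09Rik, with a root mean square difference of 0.062, 0.0664 and 0.0967 in centred log2(TPM + 1). For Eef1a1 they were AK046316, Hmgxb4 and Med10 (0.0034, 0.0135 and 0.0140). Within 0.1 of the profile there were 4 rows for Eef2 and 375 rows for Eef1a1. Nearly flat profiles fall within a fixed distance of each other more easily than steep ones, so these counts do not tell how common a rise like that of Eef2 was.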

How the data were processed

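RNA-seq libraries (stranded, polyadenylated RNA) of 2 +/+ and 2 Chd5-/- NSC cultures were used. The authors deposited TPM values, 1 column per sample. The submitters' processing notes name Bowtie2 2.2.3, RSEM 1.2.20 and the mm10 build, while the gene annotation and the strand setting are not given in the sources used here. Columns were assigned by name.

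Differences were computed on log2(TPM + 1) and tested with limma 3.58.1 in R 4.3.3 (eBayes with trend, two-sided, no other terms) over the 12576 rows that averaged 1 TPM or more, with Benjamini-Hochberg adjustment over all of them. Scripts were tested on simulated data. GC content and length were those of the longest basic transcript of GENCODE M21, found for 93.0% of rows tested, and trends were removed by loess (span 0.5). Close copies were sought with blastn 2.17.0. Other alternatives were pseudocounts of 0.1 and 5, no minimum or 10 TPM, other scalings, a replicate block, and leaving out each sample. Named genes were the 9 members, the extremes of each related list, the 3 rows nearest to Eef1a1 and Eef2, and Chd5. Aimp1, Aimp2, Dars, Iars, Rars, Eprs, Qars, Kars, Lars, Mars, Ece2 and Gm6548 were named after their values were seen, as were single marker genes. Members and lists were chosen with earlier results of these data known.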

Additional observations from a re-analysis of the deposited data

How the results depend on the processing

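Of the 9 genes, 8 kept the direction of their difference under every alternative in which they were tested, and Eef1a1 changed sign after quantile normalization (0.38) and ranged from -0.17 to 0.08 with 1 sample left out, the last without +/+ replicate 1. The median over the 9 genes was 0.73 under median-of-ratios scaling, 0.75 under quantile normalization, 0.54 without the trends of GC content and length (the same with a replicate block), and from 0.59 to 1.27 with 1 sample left out. The number of the 9 at an unadjusted p under 0.05 was 3 with the trends removed and 1 with the replicate block as well (Eef1e1), and from 2 to 6 with 1 sample left out. The number past the adjusted threshold was then from 0 to 4, in fits that assume the lone sample to vary like the other group. Over all rows, 1758 had an unadjusted p under 0.05 at a minimum of 10 TPM, 1252 with the trends removed, 815 with the replicate block as well, and from 804 to 4436 with 1 sample left out. The rows past the adjusted threshold were 4 with a pseudocount of 0.1, 0 with no minimum, 1 after quantile normalization, 3 with the trends removed, 0 with a replicate block with or without them, and from 0 to 1247 with 1 sample left out. The replicate numbers are not said to mark a shared litter, and deviations of samples with the same number had a correlation of -0.152. With the replicate block 5 of the 9 genes and 2289 rows had an unadjusted p under 0.05, and with crossed numbers, tried after the data were seen, 5 and 3092. All 9 ratios kept their sign with 1 TPM added to both terms or 1 sample left out, and with the trends removed, tried after the data were seen, where the genotypes overlapped for 2 of them (Eef1a2 to Eef1a1 and Eef2k to Eef2). TPM carries no depth, so precision rests on the samples alone.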
